A study of Arabidopsis thaliana with 8 samples.

Results

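Glucosinolates are sulfur-containing defence compounds of the cabbage family, stored in leaves and split by myrosinases when tissue is damaged. Aliphatic glucosinolates are built from methionine whose side chain has first been lengthened, and indolic glucosinolates are built from tryptophan. Each branch has its own MYB transcription factors, with MYB28, MYB29 and MYB76 promoting the aliphatic branch and MYB34, MYB51 and MYB122 the indolic branch. The genes described here are these 6 regulators and 4 genes of aliphatic synthesis: MAM1, CYP79F1, CYP79F2 and CYP83A1. They were chosen by locus code: MYB28 (AT5G61420), MYB29 (AT5G07690), MYB76 (AT5G07700), MYB34 (AT5G60890), MYB51 (AT1G18570), MYB122 (AT1G74080), MAM1 (AT5G23010), CYP79F1 (AT1G16410), CYP79F2 (AT1G16400) and CYP83A1 (AT4G13770). All 10 were measured, and they are 10 of 27826 loci in the deposited table.

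Shoots of Arabidopsis thaliana, a small annual of the cabbage family, were profiled on 8 arrays, labelled by Affymetrix's protocol, in 4 groups of 2. Adult plants were 3 weeks old and juvenile plants 2 weeks old. At each age, plants were submerged in water in darkness for 24 h or kept in dark tanks without water for the same 24 h, so that darkness was shared by all groups. The plant line was not given in the sources used here, and nothing in the labels says whether the 2 arrays of a group came from separate plants or pools. The p-values below measure only the spread between these arrays, which may be technical. Values are given on the log2 scale as deposited, where a difference of 1 is 2-fold.

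Arrays agreed closely within groups, with r between 0.990 and 0.995 across genes, and array medians lay between 6.13 and 6.30. The hypoxia gene ADH1 (alcohol dehydrogenase) read 12.17 and 12.07 in submerged adult plants, against 7.07 and 7.05 in adult controls, and 12.04 and 12.09 in submerged juvenile plants, against 7.57 and 7.41 in juvenile controls. ADH1 serves as a check of the labels, since the submerged samples are titled dark although their other fields name submergence. The leaf markers RBCS1A and RCA lay between 10.4 and 12.8 on all arrays. The third leaf marker, CAB2 (a light-harvesting protein), was dim, between 2.92 and 4.40, and rose on submergence in juvenile plants by 1.22 (limma adjusted p = 0.00961), with 0.46 in adult plants (0.225). The 4 root markers lay between 2.45 and 5.67, with the highest values in CASP1, and the 3 flower and seed markers between 2.98 and 4.23. The mean of the flower and seed markers was 3.97 and 3.98 in submerged adult plants, against 3.47 and 3.57 in adult controls, and none of the 3 was called (limma adjusted p of 0.086 to 0.44). In juvenile plants it was 3.59 and 3.43 in submerged plants, against 3.58 and 3.41 in controls. The part of these marker shifts in the results below was not tested. In whole shoots, fewer cells of a type and less RNA per cell cannot be told apart.

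The first question was how submergence changed these genes at each age. The indolic regulators MYB51 and MYB122 rose more than 10-fold at both ages, MYB34 fell, and on the aliphatic side MYB28, MAM1 and CYP83A1 rose between 2.22-fold and 4.93-fold. MYB29, MYB76 and CYP79F1 did not pass the test at either age. A change counts as called where limma's p, adjusted over all 27826 loci by the Benjamini-Hochberg method, was below 0.05. In adult plants 5 of the 10 genes rose and 1 fell, where 33.6% of all genes were called, 14.6% as higher and 18.9% as lower. In juvenile plants 6 rose and 1 fell, where 34.2% of all genes were called, 15.5% as higher and 18.8% as lower. Both ages shared 6 calls, each in 1 direction, and CYP79F2 was called in juvenile plants alone. The median change of the 10 genes was 0.66 in adult and 0.88 in juvenile plants, against -0.02 and -0.05 over all genes.

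**Figure D1:**
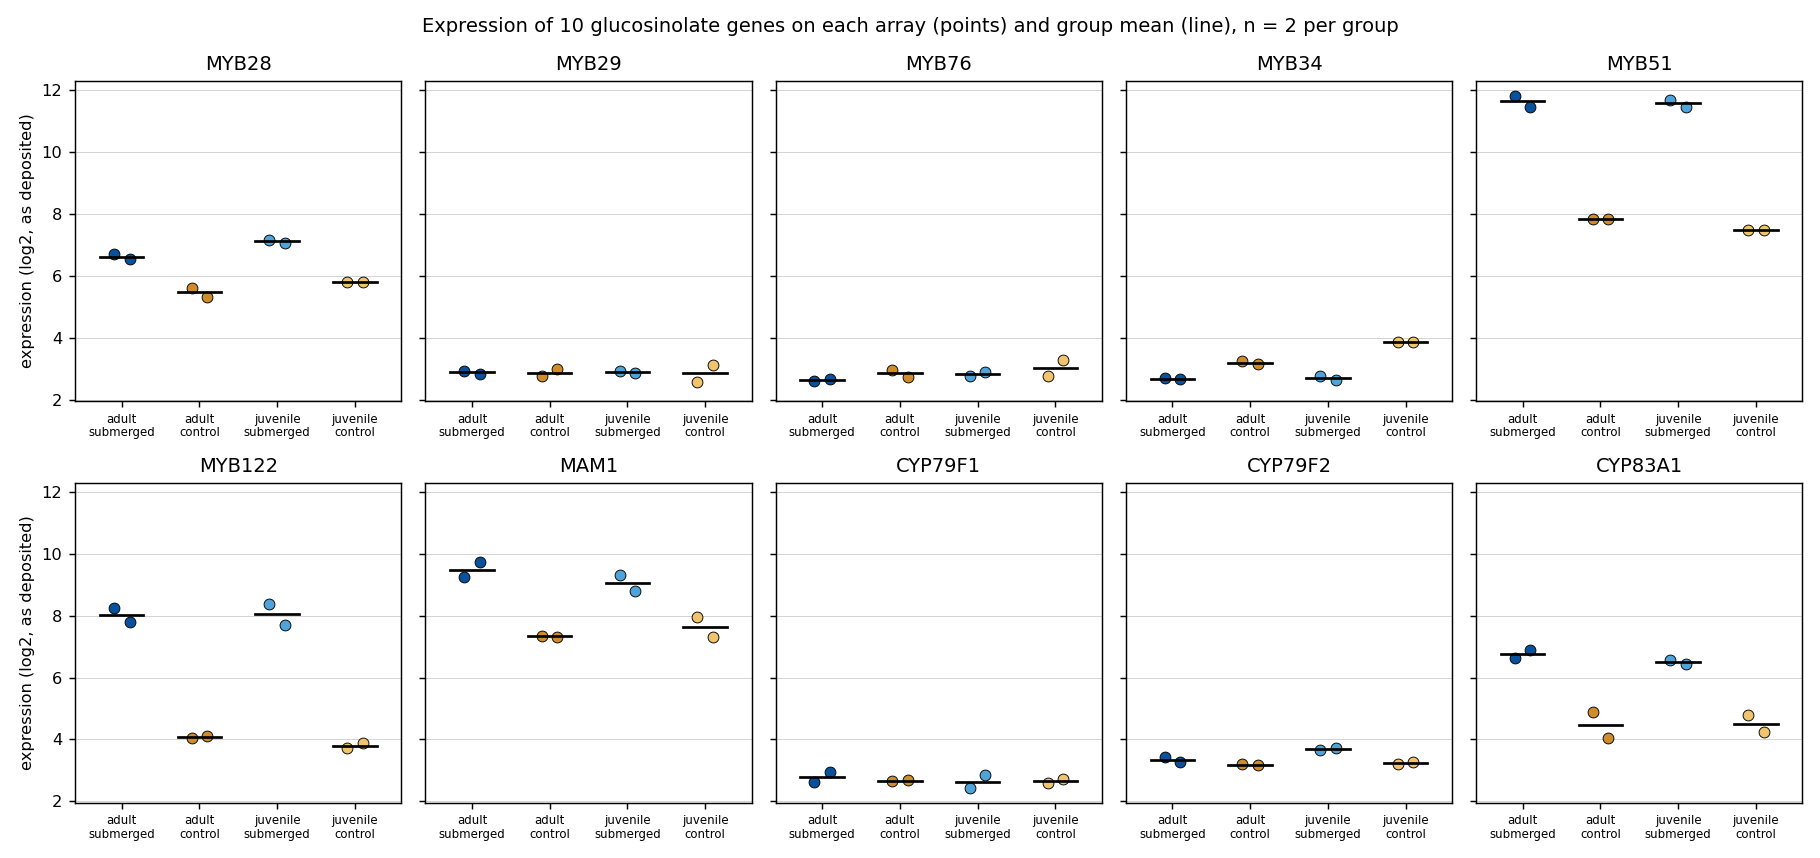
Expression (log2, as deposited) of the 10 genes on each of the 8 arrays, with 2 points per group and a line at the group mean. MYB51 and MYB122 stand far above their controls in submerged plants of both ages, MYB28, MAM1 and CYP83A1 stand above by less, and MYB29, MYB76 and CYP79F1 stay between 2.43 and 3.29 on every array.

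MYB51, also named HIG1 for high indolic glucosinolates, is a main activator of indolic synthesis in leaves. It read 11.83 and 11.47 in submerged adult plants, against 7.85 and 7.85 in adult controls. In submerged juvenile plants it read 11.69 and 11.45, against 7.47 and 7.49 in juvenile controls. All 4 submerged arrays lay above 11.4 and all 4 control arrays below 7.9, so the groups did not overlap. The rise was 3.80 ± 0.15 (SE) in adult plants, or 13.9-fold (limma adjusted p = 1.17e-05), and 4.09 ± 0.15 in juvenile plants, or 17-fold (8.26e-06). Of all 27826 genes, 283 had a larger rise in adult and 313 in juvenile plants.

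MYB122, a close relative that acts with MYB51, had the largest rise of the 10 genes. Its values were 8.26 and 7.78 in submerged adult plants, against 4.04 and 4.11 in adult controls. They were 8.39 and 7.71 in submerged juvenile plants, against 3.72 and 3.87 in juvenile controls. The submerged pairs differed by 0.48 and 0.68, which is far less than the distance to the controls. The rise was 3.94 ± 0.25 (SE) in adult plants, or 15.3-fold (limma adjusted p = 5.5e-05), and 4.26 ± 0.25 in juvenile plants, or 19.1-fold (3.67e-05).

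MYB34, named ATR1 for altered tryptophan regulation, is the third indolic activator and moved the other way. It read 2.69 and 2.67 in submerged adult plants, against 3.23 and 3.15 in adult controls. Submerged juvenile plants gave 2.77 and 2.64, against 3.86 and 3.87 in juvenile controls. The submerged values were the same at both ages within the spread of the arrays, and the juvenile controls were the highest group. The gene fell by 0.51 ± 0.11 (SE) in adult plants (limma adjusted p = 0.0112) and by 1.16 ± 0.11 in juvenile plants (0.000271). The adult call was lost without replicate 1 of the adult controls (-0.47, limma adjusted p = 0.0674). MYB34 was dim: 6 of its 8 values, all but those of juvenile controls, lay below the lower quartile of their array, which was between 3.43 and 3.56.

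MYB28, named HAG1 for high aliphatic glucosinolates, is the principal activator of the aliphatic branch. It read 6.69 and 6.54 in submerged adult plants, against 5.61 and 5.31 in adult controls, and 7.17 and 7.05 in submerged juvenile plants, against 5.80 and 5.81 in juvenile controls. The 4 groups did not overlap, and their order from high to low was submerged juvenile, submerged adult, juvenile control and adult control. MYB28 rose by 1.15 ± 0.14 (SE) in adult plants, or 2.22-fold (limma adjusted p = 0.000845), and by 1.30 ± 0.14 in juvenile plants, or 2.46-fold (0.000463).

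The other aliphatic activators, MYB29 and MYB76, are neighbouring genes. MYB29 lay between 2.58 and 3.13 over the 8 arrays, with group means between 2.86 and 2.90. Its change was 0.01 in adult plants, with a 95% interval of -0.44 to 0.47, and 0.05 in juvenile plants, with an interval of -0.41 to 0.50. MYB76 lay between 2.60 and 3.29, with changes of -0.22 (interval -0.66 to 0.22) and -0.21 (interval -0.65 to 0.23). Every value of both genes was below the lower quartile of its array, so a change may be compressed, and neither interval reaches a 2-fold change in these values.

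Among the synthesis genes, MAM1 encodes the methylthioalkylmalate synthase that starts each round of methionine chain elongation. It read 9.25 and 9.72 in submerged adult plants, against 7.35 and 7.30 in adult controls. In submerged juvenile plants it read 9.30 and 8.79, against 7.96 and 7.30 in juvenile controls. Submerged and control arrays were separate at each age, while the 2 ages overlapped within each treatment. The rise was 2.16 ± 0.28 (SE) in adult plants, or 4.46-fold (limma adjusted p = 0.00106), and 1.41 ± 0.28 in juvenile plants, or 2.66-fold (0.00694).

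CYP83A1, the cytochrome that oxidises aliphatic aldoximes, followed a like pattern. It gave 6.64 and 6.90 in submerged adult plants, against 4.89 and 4.05 in adult controls, and 6.57 and 6.45 in submerged juvenile plants, against 4.78 and 4.24 in juvenile controls. The adult controls differed by 0.84, the widest gap between 2 arrays of a group among the 10 genes. The rise was 2.30 ± 0.30 (SE), or 4.93-fold, in adult plants (limma adjusted p = 0.0011) and 2.00 ± 0.30, or 4-fold, in juvenile plants (0.00199).

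CYP79F1 and CYP79F2, which sit next to each other in the genome, convert chain-elongated methionine to aldoximes upstream of CYP83A1. CYP79F1 lay between 2.43 and 2.95 on the 8 arrays, below the lower quartile on all of them. Its change was 0.12 in adult plants (95% interval -0.31 to 0.54) and -0.03 in juvenile plants (-0.46 to 0.40), and the 4 groups overlapped. CYP79F2, which handles the long-chain substrates, read 3.42 and 3.26 in submerged adult plants, against 3.20 and 3.16 in adult controls. It read 3.67 and 3.71 in submerged juvenile plants, against 3.19 and 3.27 in juvenile controls. CYP79F2 was dim as well: 6 of its 8 values, all but those of submerged juvenile plants, lay below the lower quartile of their array.

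The juvenile rise of CYP79F2 was 0.45 ± 0.11 (SE), or 1.37-fold (limma adjusted p = 0.0199), and the adult change was 0.16 (95% interval -0.11 to 0.43, adjusted p = 0.335). The juvenile call was the weakest of those made. It was lost after centring on array medians (0.32, limma adjusted p = 0.0827), with an intensity trend and robust prior (0.0577), and without any 1 of the 4 juvenile arrays (0.0588 to 0.114). Probes for such close relatives can share signal, and the assignment of probes to loci was not given in the sources used here.

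**Figure D2:**
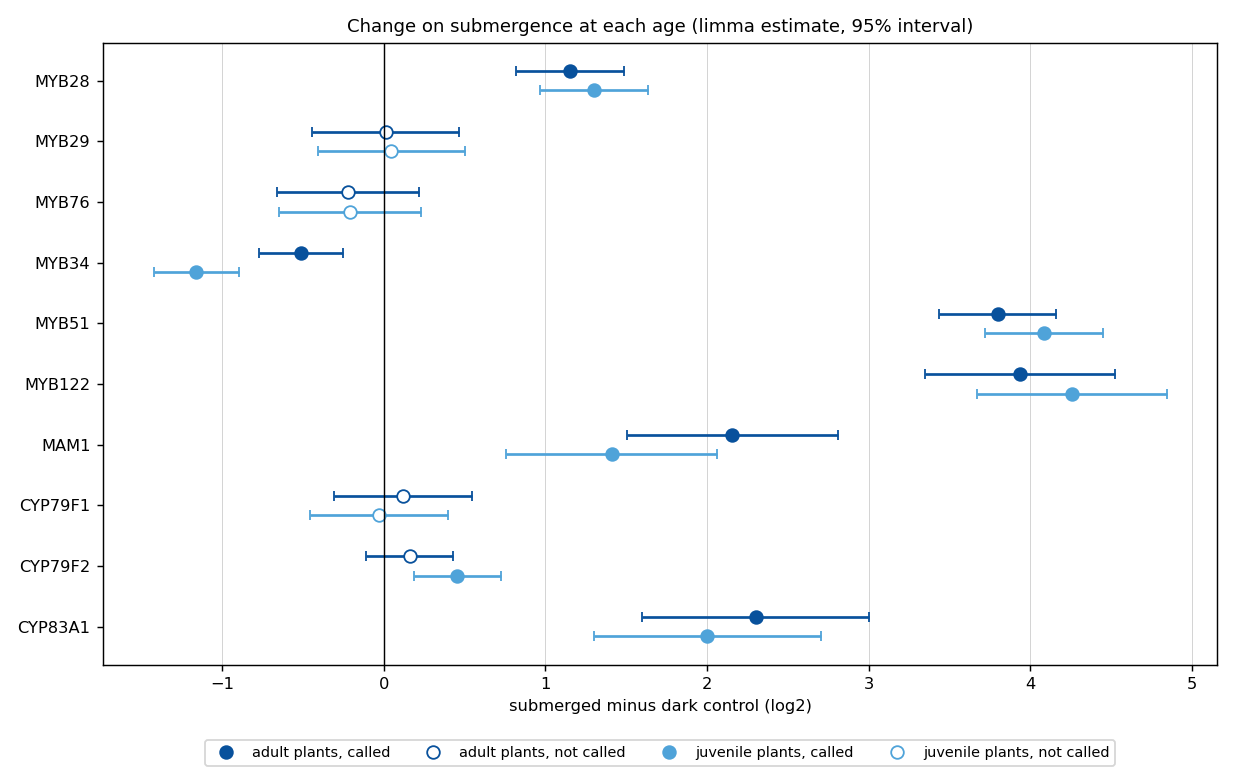
Change on submergence (submerged minus dark control, log2) of each gene in adult plants (upper point) and juvenile plants (lower point), with 95% limma intervals from 2 arrays per group; filled points were called. MYB51 and MYB122 lie near 4, MYB28, MAM1 and CYP83A1 between 1.15 and 2.30, MYB34 below 0, and the intervals of MYB29, MYB76 and CYP79F1 span 0 at both ages.

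The rest of the pathway was read from 11 lists by step, compiled from general knowledge of the field, which hold 60 further genes, 59 of them measured (AOP2 was not analysed here). Of the 59, 25 rose and 10 fell in adult plants, and 30 rose and 11 fell in juvenile plants. In adult plants 14.6% of all genes rose and 18.9% fell, and in juvenile plants 15.5% rose and 18.8% fell, so the falls were near the share over all genes. These shares also stand behind the counts of each step below, where a few calls in a list of 7 to 10 genes are not set apart from them. Without replicate 2 of the juvenile controls the juvenile rises were 19, and without replicate 2 of the adult controls the adult falls were 6. Of the 35 adult calls 28, and of the 41 juvenile calls 27, were kept in every alternative that tested the gene, leaving out each array included. The median change of the 59 genes, called or not, was 0.37 in adult and 0.52 in juvenile plants, against -0.02 and -0.05 over all genes.

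All 7 listed genes of indolic core synthesis rose at both ages, each by at least 2-fold, and did so in every alternative fit that tested them all and without any 1 array. CYP79B2 and CYP79B3 convert tryptophan to indole-3-acetaldoxime, which also feeds camalexin and auxin. CYP79B2 read 10.69 and 10.64 in submerged adult plants, against 4.21 and 5.34 in adult controls, and 10.83 and 10.59 in submerged juvenile plants, against 4.22 and 4.58 in juvenile controls. It rose by 5.89 ± 0.34 (SE) in adult plants (limma adjusted p = 4.3e-05) and by 6.31 ± 0.34 in juvenile plants (2.74e-05). CYP79B3 rose by 5.70 in adult and 5.17 in juvenile plants. CYP83B1, the indolic counterpart of CYP83A1, rose by 3.73 and 4.42. The sulfotransferase gene SOT16 rose by 3.04 and 3.43, and the glucosyltransferase gene UGT74B1 by 3.05 and 2.94. GSTF9 had the smallest rises, 1.27 in adult and 1.33 in juvenile plants.

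The 4 genes that serve both branches also rose at both ages, without exception in the same alternatives. GGP1 (a gamma-glutamyl peptidase) rose by 2.88 in adult and 3.17 in juvenile plants, and SUR1 (the C-S lyase) by 3.23 and 3.41. The kinases that supply the activated sulfate donor are encoded by APK, which rose by 2.85 and 2.83, and AKN2. AKN2 read 12.11 and 12.15 in submerged adult plants, against 5.84 and 5.65 in adult controls, and 12.23 and 11.98 in submerged juvenile plants, against 5.99 and 5.35 in juvenile controls. Its rise of 6.38 ± 0.22 (SE) in adult plants (limma adjusted p = 6.97e-06) and 6.44 ± 0.22 in juvenile plants (6.16e-06) was the largest of the pathway lists.

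Aliphatic steps moved less evenly. Of the 8 listed genes of aliphatic core synthesis, CYP79F1, CYP79F2 and CYP83A1 included, 4 rose and 0 fell at each age. SOT17, a sulfotransferase acting on aliphatic precursors, read 8.64 and 8.73 in submerged adult plants, against 4.09 and 4.13 in adult controls. It read 8.81 and 8.40 in submerged juvenile plants, against 4.01 and 4.47 in juvenile controls. SOT17 rose by 4.58 ± 0.20 (SE) in adult plants (limma adjusted p = 1.42e-05) and by 4.37 ± 0.20 in juvenile plants (1.46e-05). GSTU20 rose by 0.84 and 0.57. AT2G31790 rose by 0.67 in adult plants (limma adjusted p = 0.0288), with 0.42 in juvenile plants (0.128), and its call was lost without replicate 2 of submerged adult plants or of adult controls and in the 4 adult arrays alone. SOT18, the other aliphatic sulfotransferase, had changes of 0.03 and 0.34 and was not called, nor was GSTF11 (0.02 and 0.42). The juvenile rises numbered 2 when replicate 2 of submerged juvenile plants or either juvenile control was left out. GSTU20 lost its juvenile call without any 1 of the 4 juvenile arrays.

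Of the 10 listed genes of methionine chain elongation, MAM1 included, 3 rose and 1 fell in adult plants and 6 rose and 1 fell in juvenile plants. IMS2 (MAM3), the long-chain relative and neighbour of MAM1, rose by 1.70 ± 0.48 (SE) in adult plants (limma adjusted p = 0.031) and by 1.74 ± 0.48 in juvenile plants (0.0279). BCAT3, an aminotransferase, rose by 0.69 and 0.48. BAT5, a carrier of the pathway's 2-oxo acids into plastids, rose by 1.22 in juvenile plants (limma adjusted p = 0.0318), with 0.78 in adult plants (0.13). IMD1, an isopropylmalate dehydrogenase of chain elongation, rose by 1.12 in juvenile plants (limma adjusted p = 0.0494), with 0.79 in adult plants (0.138), and lost its call in 9 of 13 alternatives. IMD3, its relative in leucine synthesis, fell, with changes of -0.91 and -0.98, and lost its adult call without replicate 2 of the adult controls. BCAT4, which opens chain elongation, had changes of 0.04 and -0.33 and was not called. The juvenile rises numbered 1 when replicate 1 of submerged juvenile plants or replicate 2 of juvenile controls was left out, 3 when replicate 1 of juvenile controls was left out, and 3 in the 4 juvenile arrays alone. IMS2 lost its call when replicate 1 of the submerged plants or either control of the same age was left out, at both ages. BAT5 lost its call without replicate 1 of submerged juvenile plants, replicate 2 of juvenile controls or either adult control, and BCAT3 its juvenile call without replicate 1 of submerged juvenile plants or either juvenile control.

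Of 7 genes that modify the finished aliphatic side chain, 2 rose and 1 fell in adult plants. In juvenile plants 2 rose and 2 fell. Over all genes 14.6% rose and 18.9% fell in adult plants, and 15.5% rose and 18.8% fell in juvenile plants. A list of 7 genes is too short to set its counts apart from these shares. The S-oxygenase gene FMO GS-OX1 read 5.45 and 5.93 in submerged adult plants, against 2.64 and 2.85 in adult controls, and 6.36 and 4.42 in submerged juvenile plants, against 3.33 and 3.08 in juvenile controls. Its submerged juvenile arrays differed by more than any pair of the 10 main genes. FMO GS-OX1 rose by 2.95 ± 0.55 (SE) in adult plants (limma adjusted p = 0.00589) and by 2.19 ± 0.55 in juvenile plants (0.0202). FMO GS-OX3 rose by 1.91 and 1.57, while FMO GS-OX2 fell by 1.04 in juvenile plants, with -0.41 in adult plants (limma adjusted p = 0.345). Leaving out either juvenile control ended the juvenile call of FMO GS-OX1, and leaving out any 1 juvenile array ended that of FMO GS-OX2. The fall called in adult plants, of AT2G25450, was lost without any 1 adult array.

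Of 7 genes of indolic ring modification, 3 rose and 2 fell in adult plants and 3 rose and 3 fell in juvenile plants. CYP81F2, which hydroxylates the indole ring on the route to the defence compound used by PEN2, rose by 4.60 ± 0.19 (SE) in adult plants (limma adjusted p = 1.22e-05) and by 5.28 ± 0.19 in juvenile plants (7.19e-06). The methyltransferase genes IGMT2 and IGMT1 rose by 5.55 and 1.98 in adult plants and by 5.96 and 1.68 in juvenile plants. CYP81F4, which acts at the ring nitrogen route, fell, with changes of -0.94 and -1.61, as did its relative CYP91A2 (CYP81F1), with -1.29 and -0.88. Close relatives in this list therefore moved in opposite directions. The 3 juvenile falls were 1 without replicate 1 of submerged juvenile plants or of juvenile controls and 2 without replicate 2 of those controls. The 2 adult falls were 1 without replicate 2 of submerged adult plants or of adult controls. Probes of IGMT1 and IGMT2, which are close copies, may share signal.

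Among 7 other regulators, MYC4, a partner of the MYB proteins, rose by 0.53 in adult and 0.57 in juvenile plants. At both ages its call was lost with an intensity trend and robust prior and when some arrays were left out. MYC2, a related factor of jasmonate signalling, fell by 0.51 in adult plants (limma adjusted p = 0.0174), with -0.22 in juvenile plants (0.219). The MYC2 call was lost in the 4 adult arrays alone and when some adult arrays were left out. IQD1, a calmodulin-binding protein linked to glucosinolate levels, fell, with changes of -0.96 and -1.23. EIL3 (SLIM1), the regulator of the response to sulfur limitation, rose by 0.51 in juvenile plants (0.0169) and had a change of 0.37 in adult plants (0.0575). The juvenile call of EIL3 was lost after centring on array medians and when some juvenile arrays were left out. AT1G04770 rose by 3.42 and 3.91. In all, 2 rose and 2 fell in adult plants and 4 rose and 1 fell in juvenile plants, where 33.6% and 34.2% of all genes were called. The 4 rises in juvenile plants were 2 when replicate 1 of submerged juvenile plants or of juvenile controls was left out, 2 after centring, and 1 without replicate 2 of juvenile controls. The 2 rises in adult plants were 1 without replicate 1 of the adult controls or without either submerged adult array, and 4 after centring. The 2 falls in adult plants were 1 without replicate 2 of the submerged adult arrays or of the adult controls. Of the 3 transporters, GTR2 alone was called, with a rise of 0.52 in juvenile plants (limma adjusted p = 0.044), and that call was lost without any 1 juvenile array, after quantile normalization or centring, and with the replicate block.

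Among the 10 breakdown genes 2 rose and 4 fell at each age, and falls also outnumbered rises over all genes (18.9% against 14.6% in adult plants and 18.8% against 15.5% in juvenile plants). The myrosinase genes TGG1 and TGG2 stayed between 12.0 and 12.6 on all arrays, with changes between -0.18 and -0.12, and were not called. These values lie near the top of the arrays, whose highest values were 12.93 to 13.05. Whether a change is compressed there was not tested. PEN2, an atypical myrosinase that splits indolic glucosinolates in intact cells, rose by 1.45 ± 0.13 (SE) in adult plants (limma adjusted p = 0.000206) and by 1.53 ± 0.13 in juvenile plants (0.000146). The nitrile-specifier genes NSP5 and NSP1 fell, with changes of -1.83 and -0.99 in adult plants and -1.99 and -0.76 in juvenile plants. ESP, the epithiospecifier, fell by 1.64 in adult plants, with -1.5 in juvenile plants, while ESM1, its modifier, rose by 0.79 and 1.26. The guard cell and myrosin cell regulator FMA (FAMA) fell, with changes of -0.76 in adult and -0.94 in juvenile plants. Of the 3 markers of those cells, the other two are TGG1 and TGG2. The mean of the 3 lay between 10.85 and 10.87 in submerged adult plants, against 11.16 to 11.27 in adult controls, and between 10.87 and 10.91 in submerged juvenile plants, against 11.30 to 11.32 in juvenile controls. The part of these cells in the breakdown results was not tested.

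**Figure D3:**
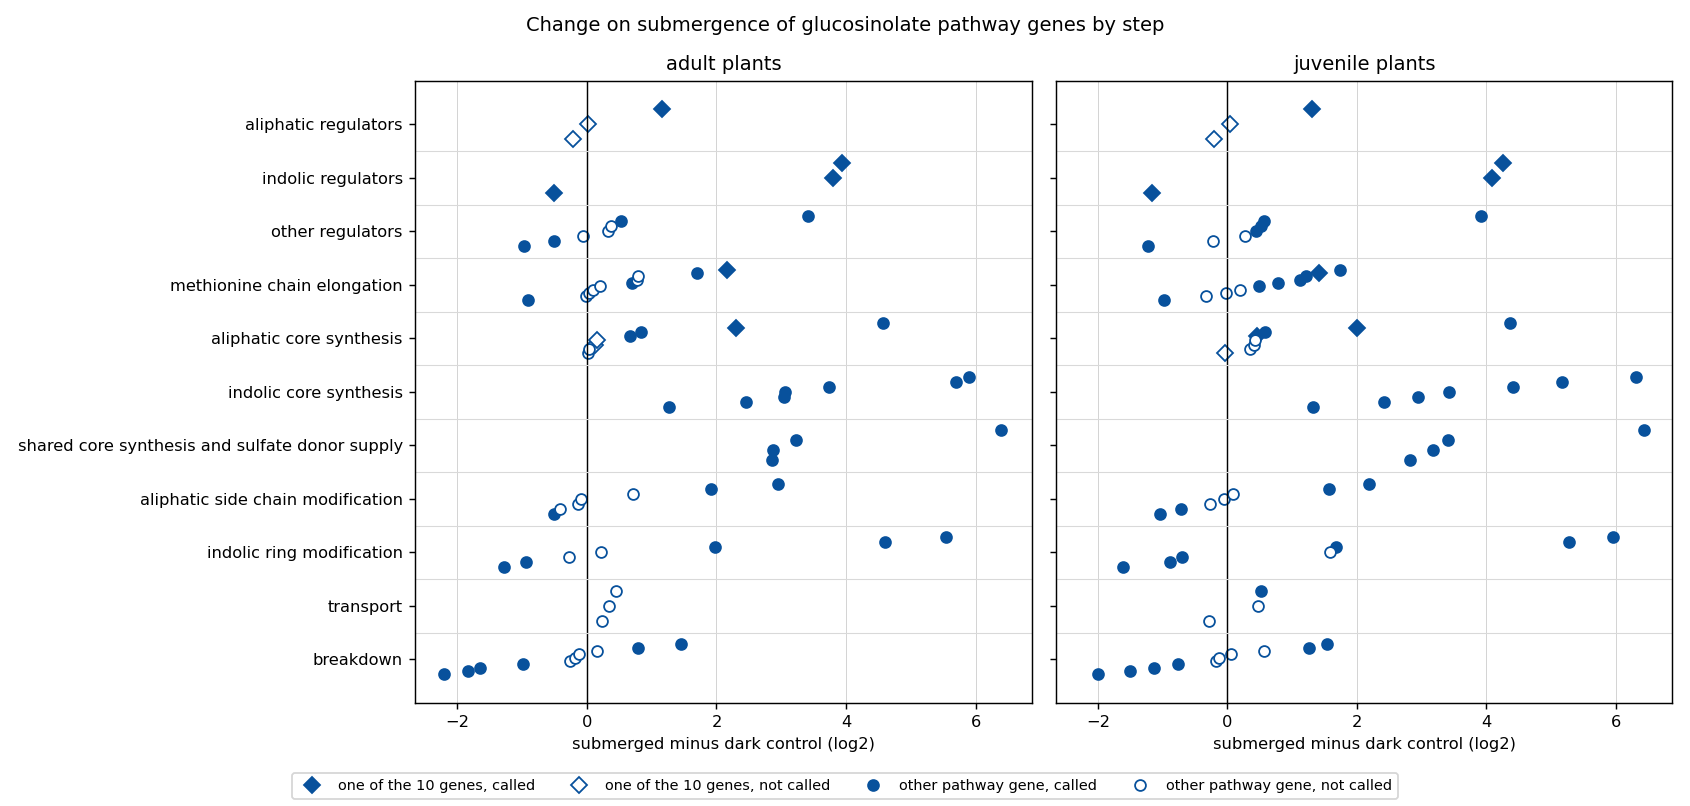
Change on submergence (submerged minus dark control, log2) of 69 pathway genes by step, in adult plants (left) and juvenile plants (right); diamonds are the 10 main genes, circles the other pathway genes, and filled symbols were called. The 7 indolic core genes and the 4 shared genes all lie above 1.2 in both panels, while most other steps hold genes on both sides of 0; all 8 aliphatic core genes lie above 0 in adult plants, as do all 3 transporters.

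The second question was whether plants of the 2 ages differed. None of the 10 genes was called in limma between adult and juvenile plants, either submerged (smallest adjusted p 0.254, where 0.126% of all genes were called, 0.0108% higher and 0.115% lower) or in the dark controls (0.109, where 0.0539% were called, 0.0395% higher and 0.0144% lower). An unadjusted limma p under 0.05 was reached by 2 of the 10 genes in submerged plants, where 3282 of all 27826 genes reached it. In controls 3 of the 10 reached it, where 2816 of all 27826 did. A fit with an intensity trend and robust prior also called 0 of the 10 in each. MYB28 was lower in adult plants in both treatments without overlap of the arrays, with -0.49 in submerged plants (95% interval -0.82 to -0.16, limma adjusted p = 0.254) and -0.35 in controls (-0.68 to -0.01, 0.478). The MYB34 difference was -0.67 between adult and juvenile controls (interval -0.94 to -0.41, limma adjusted p = 0.109), while in submerged plants the difference was -0.02. MYB51 was 0.37 higher in adult controls (interval 0.00 to 0.73, adjusted p = 0.492). The intervals leave room for age differences of up to about 2-fold in MAM1, from -0.21 to 1.09 in submerged plants.

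**Figure D4:**
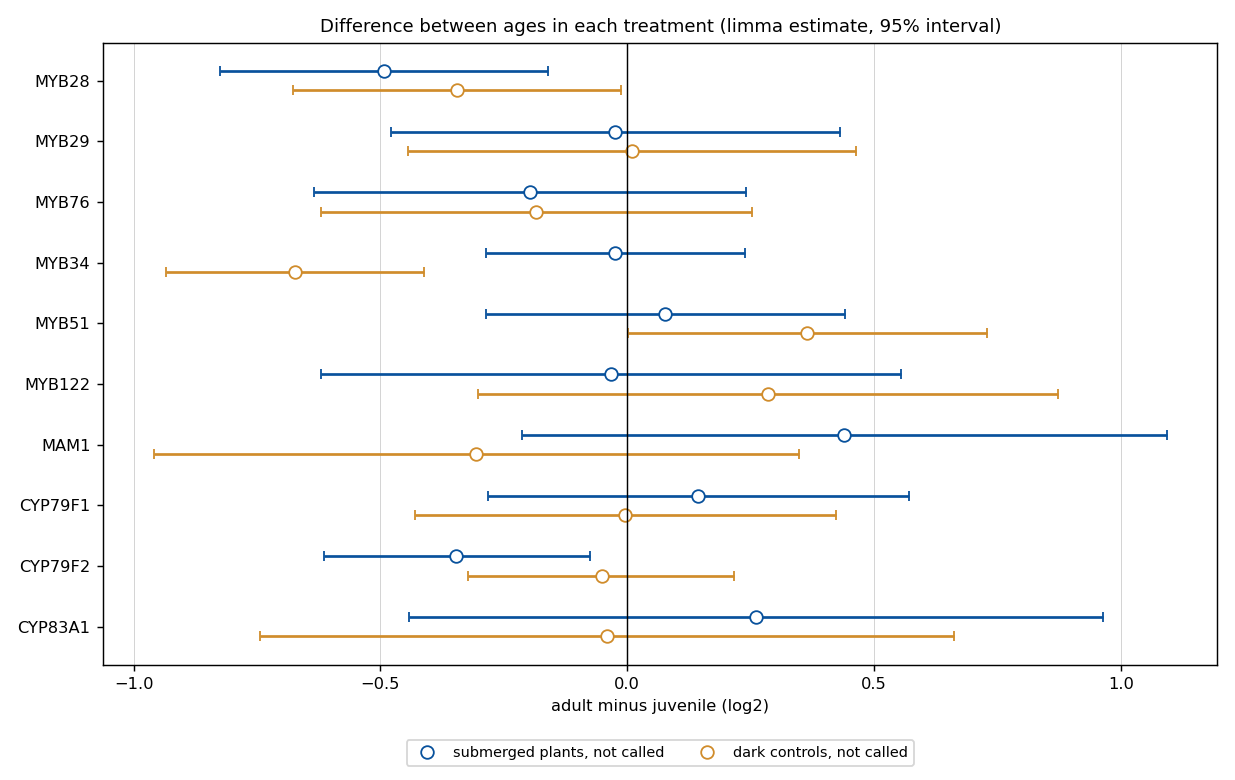
Difference between ages (adult minus juvenile, log2) of each gene in submerged plants (upper point) and dark controls (lower point), with 95% limma intervals from 2 arrays per group; open points were not called, and no gene was called. MYB28 lies below 0 in both treatments, and MYB34 lies at -0.67 in controls and near 0 in submerged plants.

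The interaction, the adult change minus the juvenile change, asked whether age altered the response. It called 0 of the 10 genes, as of all genes (0%). An unadjusted limma p under 0.05 was reached by 1 of the 10, MYB34, and by 2030 of all 27826 genes. The MYB34 interaction was 0.65 (95% interval 0.28 to 1.02, limma adjusted p = 0.438). For MYB51 it was -0.29 (-0.80 to 0.23), for MYB122 -0.32 (-1.15 to 0.51), for MYB28 -0.15 (-0.62 to 0.32) and for MAM1 0.75 (-0.18 to 1.67). The MYB34 interval lay above 0, but the gene was not called after adjustment over all loci, and the other 4 intervals spanned 0. In submerged plants MYB34 read 2.64 to 2.77, below the lower quartile of each array, where a change may be compressed. The part of such compression in its interaction was not tested.

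Among the other pathway genes, 1 was called between the ages. PYK10, a beta-glucosidase of endoplasmic reticulum bodies that can split indolic glucosinolates, read 7.42 and 7.90 in submerged adult plants, against 9.33 and 9.58 in submerged juvenile plants. In adult controls it read 9.78 and 9.97, against 10.74 and 10.43 in juvenile controls. Its difference was -1.80 ± 0.20 (SE) in submerged plants (limma adjusted p = 0.0423) and -0.72 in the control comparison (0.302), and the interaction of -1.08 was not called (0.490). The call was lost without any 1 of the 8 arrays, with the replicate number as a block and in a fit of the 4 submerged arrays. On submergence PYK10 fell, with changes of -2.21 in adult and -1.13 in juvenile plants.

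The genes whose pattern over the 8 arrays was most like that of a regulator or enzyme were found by Pearson's r, given as a description because all arrays share the division into submerged and control plants. For MYB51 they were AT1G30720, AT3G56408 and AGP5, with r of 0.999 each. GGP1 was the closest pathway gene to both MYB51 (r = 0.999, with 7 other genes closer) and MYB122 (r = 0.998, with 8 closer). For MYB28 the closest genes were PEPR1, AT1G48640 and AT4G17790 (r = 0.992 each), and the closest pathway gene was FMO GS-OX3 (r = 0.948, with 335 genes closer). For CYP83A1 they were ZIGA4, AT1G14070 and AT5G23610, with r between 0.991 and 0.997, and IGMT2 was the closest pathway gene (r = 0.987, with 13 closer).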

How the data were processed

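The deposited table gave 1 log2 value per locus and array for 8 arrays. RMA and limma are named in the submitters' processing notes, with no role stated. That the deposited values are log2 was judged from their range (1.86 to 13.0). The array model, probe assignment and build were not given in the sources used here, and probe signals and background were not used. Symbols came from a RefSeq table (TAIR10.1), which matched 27241 of 27826 loci and all 10 genes. No sequence was at hand, so none is printed.

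In limma 3.58.1 (R 4.3.3), each of the 4 groups was given its own mean over the 8 arrays, and the procedure was tested on simulated data. It had 4 residual degrees of freedom and 2.99 from the prior. The 5 contrasts were two-sided, with Benjamini-Hochberg adjustment over all loci. An exact permutation of 2 against 2 arrays cannot reach below 0.333, so calls rest on variance shared across genes, and the number of arrays limits the precision. No batch or date was given. The genes and lists were chosen with earlier results of these data known. All 10 genes are named, with up to 4 called genes of largest change per list and age, genes called between ages, the 3 most like MYB28, MYB51 and CYP83A1, and some listed genes that were not called. Alternatives were quantile normalization, centring on array medians, an intensity trend with robust prior, the upper 50% of genes by mean, a replicate block, the 4 arrays compared alone, and leaving out each array. Figures used matplotlib 3.10.9.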

Additional observations from a re-analysis of the deposited data

Results flagged for a closer look

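Genes of the pathway lists drew attention where the arrays of the 2 groups were fully separate in opposite directions. The share of all genes that meet this rule was not counted. Separation alone is weak evidence, since an exact permutation of 2 against 2 arrays cannot reach below 0.333. SOT16 was lower in submerged adult than in submerged juvenile plants (-0.039) and higher in adult than in juvenile controls (0.343). The interaction was -0.38, with a limma adjusted p of 0.733, so the difference did not pass the test. AOP3, a gene of aliphatic side chain modification, had a change on submergence of 0.71 in adult plants and -0.27 in juvenile plants. Between the ages it was 0.61 in submerged plants and -0.38 in controls. Its interaction was 0.99 (limma adjusted p = 0.638). AOP3 read 3.26 and 4.07 in submerged adult plants, against 2.91 and 2.99 in adult controls, and 3.17 and 2.94 in submerged juvenile plants, against 3.19 and 3.46 in juvenile controls, and 7 of these 8 values were below the lower quartile of their array.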

How the results depend on the processing

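The 6 genes called at both ages kept their direction in all 162 alternative values and their call in 161, the exception being MYB34 in adult plants. Only quantile normalization, centring and leaving out an array of the same age could move these changes. In the other fits the change is the same by design, so a kept direction there tells nothing. After the filter to the upper 50% of genes, which kept 3 of the 10, 3 were called at each age, and 26 pathway genes in juvenile plants. The filter took the mean over all 8 arrays, submerged ones included. MYB28 read 5.31 to 5.81 in controls, below every array median (6.13 or more), so its passing drew on its submerged values. These calls are therefore no separate support. The pathway alternatives were added after seeing the data. Median centring shifted juvenile changes by -0.13, the age difference in submerged plants by 0.11 and the interaction by 0.17. The share of called genes that were higher then became 34.3% in juvenile plants, against 45.2%, and 53.3% between control ages, against 73.3%. Between submerged ages, called genes numbered 35, against 22 after centring, 264 with an intensity trend, 4 with the replicate block and 0 in the 4 arrays alone; pathway genes called were 1, and 0 with the block or in the 4 arrays. Between control ages the 15 became 149 with a trend (3 pathway genes), 59 after the filter, 8 with the block and 0 in the 4 arrays. Shares higher were 37.1% with the trend between submerged ages, against 8.57%. The interaction called 28 genes with a trend. With 1 array left out, the lone array of its group was assumed to vary like the other groups, and called genes ranged from 0 to 96 between submerged ages, 0 to 2 between control ages and 0 to 23 for the interaction, and pathway genes from 0 to 1 for the first and last. The replicate numbers did not pair the arrays (correlations of deviations -0.11 to 0.05), and the block gave 8916 and 8839 calls on submergence in juvenile and adult plants, with 7 and 6 of the 10 genes.

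Changes that turned sign were all uncalled. MYB29 was -0.084 in juvenile plants after centring and -0.062 in adult plants after quantile normalization. After centring, the age difference in submerged plants was 0.082 for MYB29 and MYB34 and 0.073 for MYB122, that in controls -0.05 for MYB29, and the interaction 0.018 for MYB28, 0.13 for MYB29 and 0.15 for MYB76. With 1 array left out, the juvenile change ranged from -0.23 to 0.32 for MYB29, -0.47 to 0.05 for MYB76 and -0.24 to 0.18 for CYP79F1. The adult change ranged from -0.10 to 0.13 for MYB29 and -0.05 to 0.29 for CYP79F1. The age difference in submerged plants ranged from -0.071 to 0.024 for MYB29, -0.09 to 0.041 for MYB34, -0.10 to 0.26 for MYB51, -0.37 to 0.31 for MYB122 and -0.065 to 0.35 for CYP79F1. In controls it ranged from -0.27 to 0.29 for MYB29, -0.44 to 0.074 for MYB76, -0.64 to 0.024 for MAM1, -0.073 to 0.065 for CYP79F1 and -0.46 to 0.38 for CYP83A1. The interaction ranged from -0.30 to 0.004 for MYB28, -0.31 to 0.24 for MYB29, -0.27 to 0.24 for MYB76, -0.66 to 0.022 for MYB122, -0.062 to 0.36 for CYP79F1 and -0.12 to 0.72 for CYP83A1. Dim values limit MYB29, MYB76, MYB34, CYP79F1 and CYP79F2 most, since a change near the lower end of an array may be compressed.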

Other observations

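Beyond the calls above, the fit with an intensity trend and robust prior called CYP83B1, CYP81F2 and ESM1 as higher in adult than in juvenile controls, by 0.85, 0.93 and 0.62, with limma adjusted p of 0.0211, 0.0438 and 0.0108. In the default fit the same differences had adjusted p of 0.147, 0.181 and 0.185. CYP83B1 read 8.00 and 8.17 in adult controls, against 7.27 and 7.20 in juvenile controls, and CYP81F2 read 6.70 and 7.04, against 5.94 and 5.94.

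CYP81F3 read 4.70 and 4.59 in submerged adult plants, against 7.07 and 4.95 in submerged juvenile plants. Without the second submerged juvenile array it was called as lower in submerged adult plants (-2.42, limma adjusted p = 0.0107) and for the interaction (-2.44, 0.0424). That fit leaves 1 submerged juvenile array, the higher one, whose spread is assumed to be that of the other groups. With all arrays the differences were -1.36 (adjusted p = 0.427) and -1.38 (0.784).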
